A study of Mus musculus with 4 samples.

Results

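The Cd248 and C1qtnf3 fibroblasts of the mouse ascending aorta were defined by 4 marker genes in single-cell RNA sequencing data. A cell counted as a fibroblast when it carried at least 3 UMIs (unique molecular identifiers, each standing for 1 captured RNA molecule) of the collagen-binding proteoglycan Dcn, less than 0.3% of its UMIs from the contractile genes Acta2 and Tagln, and no UMI of the leukocyte gene Ptprc. Of these gated fibroblasts, a cell was a member when its summed UMIs of C1qtnf3, Cd248, Lrrn4cl and Tmem100 were at least 3 and exceeded each of 4 other marker sums, led by Tcf21, Fmod, Prss12 and Cthrc1. The rule gave 1738 members among 14812 gated fibroblasts, 40565 kept cells and 41399 barcodes. The 4 libraries contributed 252 and 711 members from AD replicates 1 and 2 and 207 and 568 from AD_ABR replicates 1 and 2.

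All mice were male, wild type and 3 weeks old at the start, and all received BAPN (β-aminopropionitrile), which blocks the cross-linking of elastin and collagen by lysyl oxidases, at 1 g/kg per day in drinking water for 4 weeks. The AD group (2 libraries) had this dissection model alone. The AD_ABR group (2 libraries) had the same model plus paquinimod (ABR in the labels), a compound known to bind S100A9, at 10 mg/kg per day by the intragastric route. No vessel without BAPN was analysed here, so each comparison is between treated and untreated disease. The sources used here do not say how many mice gave each library or whether libraries came from separate mice, so the p-values below measure the spread between libraries, which may be technical.

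The adventitia is the outer, collagen-rich layer of the aortic wall, and its fibroblasts make matrix and release chemokines that recruit leukocytes. Cd248 (endosialin) is a surface glycoprotein of perivascular and adventitial stromal cells, and C1qtnf3 encodes a secreted protein related to C1q and tumour necrosis factor. Across tissues, a Pi16 and Dpp4 programme is known to mark fibroblasts of the adventitia and of fascia. Many inflammatory genes of fibroblasts are switched on by NF-kB, a family of transcription factors whose own inhibitors are among its targets.

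The libraries held 76142840 and 99572011 UMIs in AD and 93575612 and 98946431 in AD_ABR. Members had a median of 9774 to 10648 UMIs per cell, so their depth was close across libraries, whereas the median over all kept cells ranged from 5569 to 9529. Summed member UMIs ranged from 2457625 to 8740378 per library. Libraries shared 22 to 38 barcodes in pairs, and no member barcode was shared. The doublet score marked 14, 36, 4 and 26 members.

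The label was checked against marker genes. Of the 4 rule genes, Cd248, Lrrn4cl and Tmem100 were present in many members and C1qtnf3 was not. Cd248 was detected in 84.5% and 94.5% of AD members and in 80.2% and 92.4% of AD_ABR members. Tmem100, a membrane protein gene of vascular and stromal cells, was detected in 79.8% to 85.6% of members and Lrrn4cl in 44% to 66.2%. C1qtnf3 was detected in only 7.14% and 15.3% of AD members and in 21.7% and 32.4% of AD_ABR members. The name Cd248 therefore describes most members and the name C1qtnf3 a minority. In leukocytes (a Ptprc UMI and no Dcn UMI, median depth 3246 to 7318 UMIs), where these genes should be absent, Cd248 was detected in 2.12% to 3.62% of cells and C1qtnf3 in 0.116% to 1.04%. These shares chose the members and carry no test.

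Genes outside the rule placed the members on the Pi16 side of the fibroblasts. The summed level of 20 genes of the Pi16 adventitial programme was 12252 and 16697 CPM in AD members and 15703 and 17522 CPM in AD_ABR members, where CPM is a gene's UMIs scaled to a total of 1000000 over the summed cells. In all other kept cells, which include cells other than fibroblasts, the same sum was 2852 to 4505 CPM. Pi16, which encodes a secreted peptidase inhibitor, stood at 2603, 3060, 2665 and 2591 CPM in members (AD 1, AD 2, AD_ABR 1, AD_ABR 2) and at 364 to 970 CPM in the other gated fibroblasts. Of these, the class led by the Tcf21 sum held it at 744, 910, 1048 and 997 CPM. Dpp4, a cell-surface dipeptidase, had a UMI in 17.5% to 32.9% of members and 2.68% to 3.58% of other gated fibroblasts. Pi16 itself was detected widely, in 79.2% to 94.4% of members and 64.2% to 82% of the others, and in 8.36% to 12.5% of leukocytes. Markers of the Col15a1 parenchymal programme summed to 1263 to 1597 CPM in members and 1517 to 2325 CPM in other kept cells. The adventitial position itself cannot be read from dissociated cells.

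**Figure D1:**
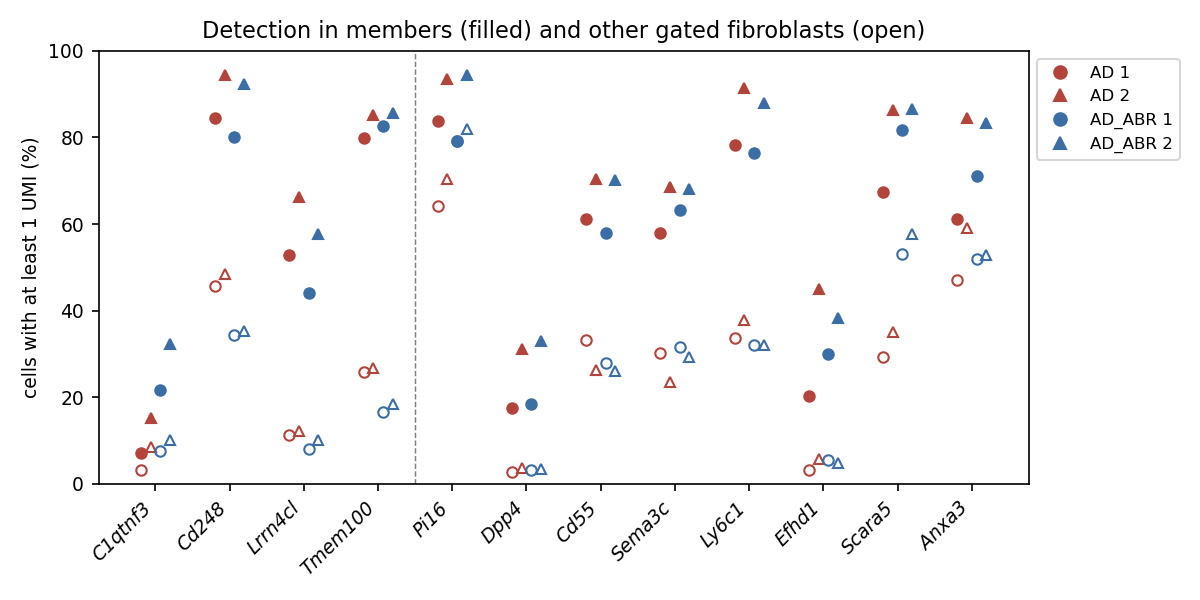
Share of cells with at least 1 UMI of each gene (y axis, %) in members (filled) and other gated fibroblasts (open), by library; the 4 genes left of the dashed line belong to the rule. C1qtnf3 reaches 32.4% of members at most. In AD 1, Pi16 is at 83.7% of members and 64.2% of the others, and Dpp4 at 17.5% and 2.68%. In AD_ABR 1 the open Pi16 point is hidden behind the filled one.

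By the ratio to other gated fibroblasts, taken at the library where it was nearest 0, the leading genes outside the rule were Adgrd1, Ly6c1, Ifi27l2a, Emilin2, Cd55, Opcml, Cmah, Sema3c, Ifi204, Ebf2, Tnxb and Gfpt2. Ly6c1, a surface antigen also found on adventitial stromal cells, stood at 458 to 712 CPM in members and 101 to 153 CPM in the others. Cd55, which protects cells from complement, stood at 282 to 366 CPM against 41.6 to 71.5 CPM, and Sema3c, a secreted guidance cue, at 190 to 329 CPM against 37.3 to 77.5 CPM. Tnxb (tenascin X) stood at 350 to 743 CPM against 96.2 to 180 CPM. The others pool several classes, and of these the Tcf21 class held Tnxb at 183 to 253 CPM and the Cthrc1 class at 255 CPM in AD_ABR 2. The Cthrc1 class also reached 354 CPM of Ly6c1, 185 CPM of Cd55 and 145 CPM of Sema3c in AD_ABR 1. The genes lowest in members were Smoc1, Rbp4, Eln, Tm4sf1, Cdc42ep3 and Fblim1. Eln, which encodes elastin, stood at 585, 1045, 1211 and 1527 CPM in members and at 2348 to 4790 CPM in the others. The Tcf21 class lay nearer to members, at 1007, 2252, 2591 and 2662 CPM of Eln. These levels describe cells chosen by their expression and were not tested.

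A part of the members lay at the limits of the rule. The marker sum was exactly 3 in 31, 36, 25 and 33 members (AD 1, AD 2, AD_ABR 1, AD_ABR 2), and it led the next sum by only 1 UMI in 30, 73, 31 and 71 members. Another 34, 30, 21 and 25 gated fibroblasts had it largest but at 2, and 28, 68, 23 and 61 cells lay outside because it tied with another sum. The median member sum was 8 to 13 UMIs. At least 1 UMI of the Tcf21 sum was present in 69.4% to 73.8% of members, and of the Cthrc1 sum in 40.1% to 72.3%. The Fmod sum was present in 28.2% to 51.7% and the Prss12 sum in 34.1% to 39.6%. Members thus held UMIs of the other classes' markers at low level, and the part of free RNA in this was not tested.

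C1qtnf3 separated the members among themselves. Cells with at least 5 C1qtnf3 UMIs numbered 4 and 38 in AD (1.59% and 5.34% of members) and 20 and 100 in AD_ABR (9.66% and 17.6%), with up to 212 UMIs in 1 cell. They held 70.1% to 95% of all C1qtnf3 UMIs of the members. Compared with members that had none, these cells showed higher Aspn, a small proteoglycan of dense matrix, at 3742, 2660, 2217 and 3411 CPM against 335, 536, 537 and 771 CPM. Cpxm2, Fibin, Ecrg4, Ltbp2 and Col12a1 followed in the same direction. Efemp1, which encodes fibulin-3, stood at 0 to 32.8 CPM in the C1qtnf3-high members against 152 to 223 CPM, and Cxcl12, Apoe, C3, Ccl11 and Hp were lower in all libraries too. AD replicate 1 held only 4 such members. The median depth of C1qtnf3-high members was 8986 to 15752 UMIs, against 9452 to 10253 in members without C1qtnf3. The split used the expression of these cells and was not tested. C1qtnf3-high cells were not limited to members. Among other gated fibroblasts 16, 57, 61 and 145 cells reached 5 UMIs, a smaller share (0.74% to 3.38%) but a larger number in each library. Members held 87 of 326, 865 of 1844, 880 of 2568 and 3105 of 6549 C1qtnf3 UMIs of the gate. In AD_ABR the Cthrc1 class stood at 269 and 446 CPM of C1qtnf3, against 358 and 448 CPM in members.

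C1qtnf3 itself could be compared between groups only where the rule did not use it. In cells chosen with the other 3 marker genes it stood at 17.5 and 28.8 CPM in AD and 28.8 and 119 CPM in AD_ABR. AD_ABR replicate 1 thus lay at the level of AD replicate 2, and AD_ABR replicate 2 lay above both AD libraries. The log2 fold change was 1.74 ± 0.81 (SE) with an edgeR adjusted p of 0.384. Over all gated fibroblasts it stood at 9.92, 36.2, 79.6 and 150 CPM, without overlap between groups, and the log2 fold change of 2.38 ± 0.81 did not pass (edgeR adjusted p = 0.136). Without AD_ABR replicate 1 the cells chosen by the other genes gave 2.36 (edgeR adjusted p = 0.0217), and without AD_ABR replicate 2 they gave 0.31 (0.745). Cd248, Lrrn4cl and Tmem100, each tested in cells chosen without it, gave log2 fold changes of -0.42, -0.36 and 0.10, and none passed (edgeR adjusted p of 0.546, 0.32 and 0.836).

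The next comparison asked whether members made up another share of the fibroblasts after paquinimod. They were 10.4% and 16.6% of gated fibroblasts in AD and 6.36% and 11.7% in AD_ABR, a mean of 13.5 ± 4.36% (SD, n = 2) against 9.03 ± 3.78% (SD, n = 2). The exact 95% binomial intervals, which cover counting error only, were 9.24% to 11.7%, 15.5% to 17.8%, 5.54% to 7.25% and 10.8% to 12.6%. Replicate 2 held the larger share in both groups, and the groups overlapped. The log2 fold change of the share was -0.58 ± 0.43 (edgeR adjusted p = 0.327, exact two-sided permutation p = 0.667, where 0.333 is the smallest p that 2 against 2 allows). Without AD_ABR replicate 2 it was -1.09 (edgeR adjusted p = 0.0747), and without AD replicate 2 it was -0.20 (0.744). In cells thinned to 3000 UMIs each, the shares were 7.38%, 13.1%, 4.28% and 8.47%. Beside them, the Cthrc1 class fell from 23.6% and 27.9% to 7.15% and 8.92% of the gate, and the Tcf21 and Fmod classes rose (edgeR adjusted p of 0.00503, 0.0106 and 0.00503). As shares of all kept cells these 3 classes moved the same way, with log2 fold changes of -1.36, 0.92 and 1.32. None of the 3 passed there (edgeR adjusted p of 0.0998 each).

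**Figure D2:**
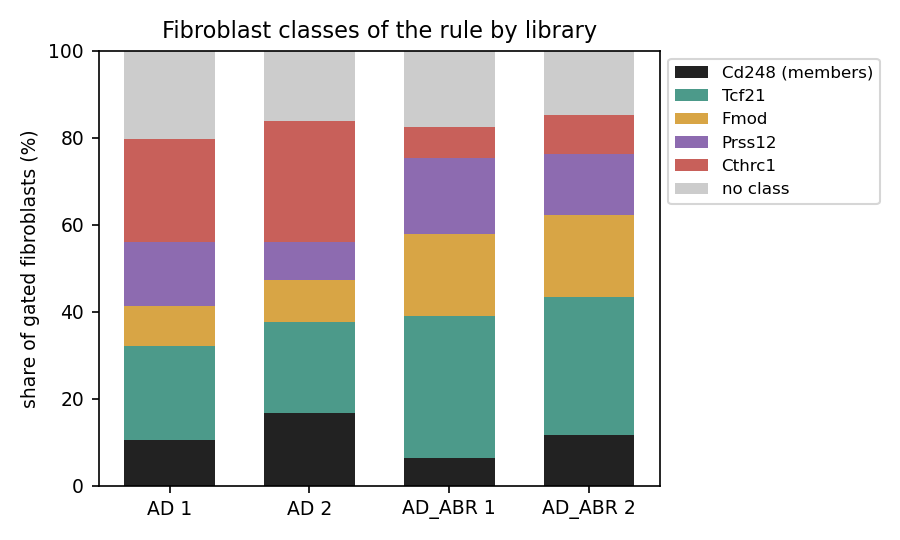
Share of gated fibroblasts (y axis, %) in each class of the rule, by library; bars add to 100%. The members (black, at the base) are 10.4% and 16.6% in AD and 6.36% and 11.7% in AD_ABR, and the Cthrc1 class is smaller in both AD_ABR libraries.

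Within members, 9 of 24 cytokine and chemokine genes and 7 of 19 NF-kB genes were lower in AD_ABR. Of 20 genes of the glucocorticoid response list, 5 were higher. Of 12348 genes tested on summed UMIs, 295 passed the edgeR quasi-likelihood test at an adjusted p of 0.05, which is 2.39% of the genes, with 127 higher (1.03%) and 168 lower (1.36%) in AD_ABR. The median log2 fold change over all tested genes was 0.000697. Of the 295 genes, 3 belonged to the marker sums of other classes (Cldn10, Cpz and Prss12, all higher), which the rule bounds in members. Of the called genes, 8 stood below 0.25 of their CPM in all other kept cells in a library of the group where they were higher, and are prone to free RNA from those cells. Leaving out AD replicate 1 gave 147 genes, leaving out AD_ABR replicate 1 gave 148, and leaving out AD_ABR replicate 2, the larger treated library with 568 members, gave 57. Of 45 genes named by a fixed rule, all kept their direction without each library in turn, and 8 also passed the test each time (Cxcl2, Cxcl10, Vcam1, Noct, Tmem176a, Tsc22d3, Sult1a1 and S100a4). In members thinned to 3000 UMIs each, 16 of 43 named genes that could be tested missed the threshold, among them Ifit3, Aldh1a2, Ccl8, Myc, Ltbp4, Fbln5, Ccn2, Plau, Bmper, Tgfb3, Angptl1, Fgf7, Creld2, Manf and Txnrd1. When cells were chosen without C1qtnf3, 12 of the 45 named genes missed it. They were Fbln7, Ifit3, Cxcl5, Col6a5, Fbln5, Ccn2, Sparc, Plau, Tgfb3, Angptl1, Hgf and Manf. In members without a C1qtnf3 UMI 10 missed it, the same genes less Fbln5, Plau and Manf, plus Galnt15.

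Members expressed many secreted chemokines and cytokines in AD. Of 24 tested ligands, 9 were lower in AD_ABR and none was higher, against 1.36% lower over all genes, with a median log2 fold change of -1.67. Cxcl10, the interferon-inducible attractant of T cells, stood at 446 and 368 CPM in AD and 63.9 and 71.7 CPM in AD_ABR (log2 fold change -2.53 ± 0.16, edgeR adjusted p = 0.000948). Cxcl2, which attracts neutrophils, stood at 858 and 775 CPM against 180 and 180 CPM (-2.14 ± 0.14, 0.000948). In both genes the AD libraries lay far above both AD_ABR libraries, and the groups did not overlap in 51.9% of all genes tested. Cxcl5, another neutrophil attractant, stood at 236 and 109 CPM against 10.6 and 7.93 CPM (-4.21 ± 0.52, edgeR adjusted p = 0.0483), and it lost its call without either AD_ABR library (0.211 and 0.239).

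The monocyte attractants Ccl2, Ccl7 and Ccl8 also fell. Ccl2 stood at 1371 and 1468 CPM in AD and 603 and 597 CPM in AD_ABR (log2 fold change -1.20 ± 0.13, edgeR adjusted p = 0.00815), and Ccl7 at 1081, 987, 640 and 491 CPM (edgeR adjusted p = 0.0407). Il6, the acute-phase cytokine, stood at 260 and 182 CPM against 69.6 and 58.1 CPM (-1.75 ± 0.19, 0.00819). Il33, an alarmin of stromal cells, stood at 705 and 506 CPM against 268 and 174 CPM (edgeR adjusted p = 0.0461). Cxcl12, which retains leukocytes and stem cells, stood at 579 and 367 CPM against 152 and 204 CPM (-1.35 ± 0.24, 0.0475). Cxcl1, the most abundant of the list at 1897 and 2397 CPM, stood at 1403 and 1210 CPM in AD_ABR and did not pass (edgeR adjusted p = 0.0807). With doublets removed 5 of the ligands passed as lower, and only Cxcl2 and Cxcl10 did without AD_ABR replicate 2. Ccl2, Ccl8 and Il6 lost their calls there alone among the libraries (edgeR adjusted p of 0.066 to 0.0708). After thinning, the log2 fold change of Ccl8 was -0.51 (edgeR adjusted p = 0.544), whereas Ccl2 and Il6 passed. Ccl7 lost its call without any 1 library (0.0565 to 0.245), Cxcl12 without AD replicate 1 or either AD_ABR library (0.0581 to 0.142), and Il33 without AD replicate 1 or AD_ABR replicate 2 (0.133 and 0.13).

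Of 19 tested NF-kB subunits, feedback inhibitors and targets, 7 were lower (against 1.36% of all genes) and none was higher. The median log2 fold change was -0.94. Tnfaip3, the A20 enzyme that shuts NF-kB signalling off, stood at 235 and 167 CPM in AD and 60.2 and 50.3 CPM in AD_ABR (log2 fold change -1.82 ± 0.19, edgeR adjusted p = 0.00766). Nfkb1, the p105/p50 subunit gene, stood at 313 and 227 CPM against 97.7 and 88.7 CPM (-1.49 ± 0.17, 0.00819). Vcam1, which binds leukocyte integrins, stood at 449 and 361 CPM against 125 and 146 CPM (-1.53 ± 0.16, 0.00766). Both AD libraries exceeded both AD_ABR libraries in each of these genes, and the groups did not overlap in 51.9% of all genes tested. Nfkbie, Nfkbiz, Nfkb2 and Rel were the other called genes. Nfkbia, the classical inhibitor gene, stood at 1474, 1423, 1015 and 829 CPM and did not pass (edgeR adjusted p = 0.0778). Icam1, Ptgs2, Relb and Sod2 were among the other 11 genes that did not pass. Without AD_ABR replicate 2 only Vcam1 of the 7 called genes passed (0.0412), with Tnfaip3, Nfkb1, Nfkbie, Nfkbiz and Rel at 0.0641 to 0.153. Nfkb2 lost its call without any 1 library (0.0889 to 0.293), and Nfkbie, Nfkbiz and Nfkb2 lost theirs after thinning (0.0543 to 0.259).

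Promoters of the lower genes were searched for the NF-kB type motif of 10 letters (GGGA, then any 2 bases, then TTCC) on both strands, from 250 bases before to 50 bases after the start site (RefSeq, GRCm38.p6). Of the 16 called genes of the 2 lists, 10 had a promoter entry and 4 of these held the motif (Nfkb2, Cxcl2, Cxcl10 and Il6), a share of 40%, against 441 of 27025 genes (1.63%). Nfkbiz, Nfkb1, Vcam1, Cxcl5, Ccl2 and Ccl7 had no entry. The motif was chosen after matches had been seen, and a match is a description of letters, not evidence of binding. Both lists were chosen for NF-kB and inflammatory genes, and their uncalled genes were not counted. The share therefore cannot be tied to the treatment difference. The windows of 3 secreted ligands whose levels are given above are shown 5′ to 3′ on the strand of the gene, with the motif letters in capitals. They lie at chr5:90903649-90903948 (plus strand) for Cxcl2, chr5:92348840-92349139 (minus strand) for Cxcl10 and chr5:30012864-30013163 (plus strand) for Il6. The first matched base lies 97 bases before the Cxcl2 start, 159 before that of Cxcl10 and 44 before that of Il6.
Cxcl2: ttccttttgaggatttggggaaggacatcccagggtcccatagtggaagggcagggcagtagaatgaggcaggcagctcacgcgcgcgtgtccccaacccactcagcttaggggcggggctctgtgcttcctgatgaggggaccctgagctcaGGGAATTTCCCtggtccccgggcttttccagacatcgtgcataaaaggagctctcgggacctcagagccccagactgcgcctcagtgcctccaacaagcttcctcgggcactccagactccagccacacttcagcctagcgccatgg
Cxcl10: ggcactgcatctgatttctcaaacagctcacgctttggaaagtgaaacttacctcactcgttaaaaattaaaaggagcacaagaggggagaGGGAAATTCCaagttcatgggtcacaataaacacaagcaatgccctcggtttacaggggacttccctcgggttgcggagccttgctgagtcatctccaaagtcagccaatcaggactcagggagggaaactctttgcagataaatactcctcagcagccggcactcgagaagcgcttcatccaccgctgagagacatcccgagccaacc
Il6: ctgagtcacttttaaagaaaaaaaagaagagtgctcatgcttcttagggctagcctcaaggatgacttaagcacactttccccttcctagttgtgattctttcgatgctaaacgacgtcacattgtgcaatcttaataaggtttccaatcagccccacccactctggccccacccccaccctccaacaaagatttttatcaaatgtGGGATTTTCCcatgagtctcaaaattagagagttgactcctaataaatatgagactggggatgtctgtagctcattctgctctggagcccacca
In Cxcl2 the capitals cover a pair of overlapping matches, 1 on each strand. On the strand of the gene, the 3 genes differ in the 2 free letters of the motif. Read on its own strand, the other Cxcl2 match has the same letters as the match of Cxcl10.

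The glucocorticoid response list held 20 tested genes, among them the receptor gene Nr3c1. Of these 5 were higher (against 1.03% of all genes) and none was lower, with a median log2 fold change of 0.27. Tsc22d3 (GILZ), an anti-inflammatory leucine zipper protein, stood at 101 and 93.7 CPM in AD and 285 and 390 CPM in AD_ABR (log2 fold change 1.84 ± 0.17, edgeR adjusted p = 0.00633). Fkbp5, a co-chaperone of the glucocorticoid receptor, stood at 35.7 and 46.2 CPM against 83.0 and 107 CPM (1.25 ± 0.19, 0.0171). Sult1a1, a sulfotransferase, stood at 15 and 13.4 CPM against 41.5 and 45.9 CPM (1.69 ± 0.17, 0.00717). Klf15 and Pdk4 were the other called genes, at 3.18 to 16.7 CPM. Nr3c1, the receptor gene, stood at 143 to 150 CPM, and Zbtb16 at 16.6 and 51 CPM against 119 and 111 CPM did not pass (edgeR adjusted p = 0.23). Per1, Sgk1, Errfi1, Mt2, Cebpb and Angptl4 had log2 fold changes of -0.18 to -0.55 and did not pass (edgeR adjusted p of 0.0789 to 0.642). Lcn2 stood at 10.8 and 27.6 CPM in AD and 4.48 and 1.88 CPM in AD_ABR and did not pass (-2.87, edgeR adjusted p = 0.112). The list had 3 called genes without AD_ABR replicate 1 and 2 without AD_ABR replicate 2, where Fkbp5 missed the threshold (0.119). Pdk4 lost its call without any 1 library (0.0836 to 0.161), and Klf15 without AD replicate 1 or either AD_ABR library (0.0653 to 0.124).

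**Figure D3:**
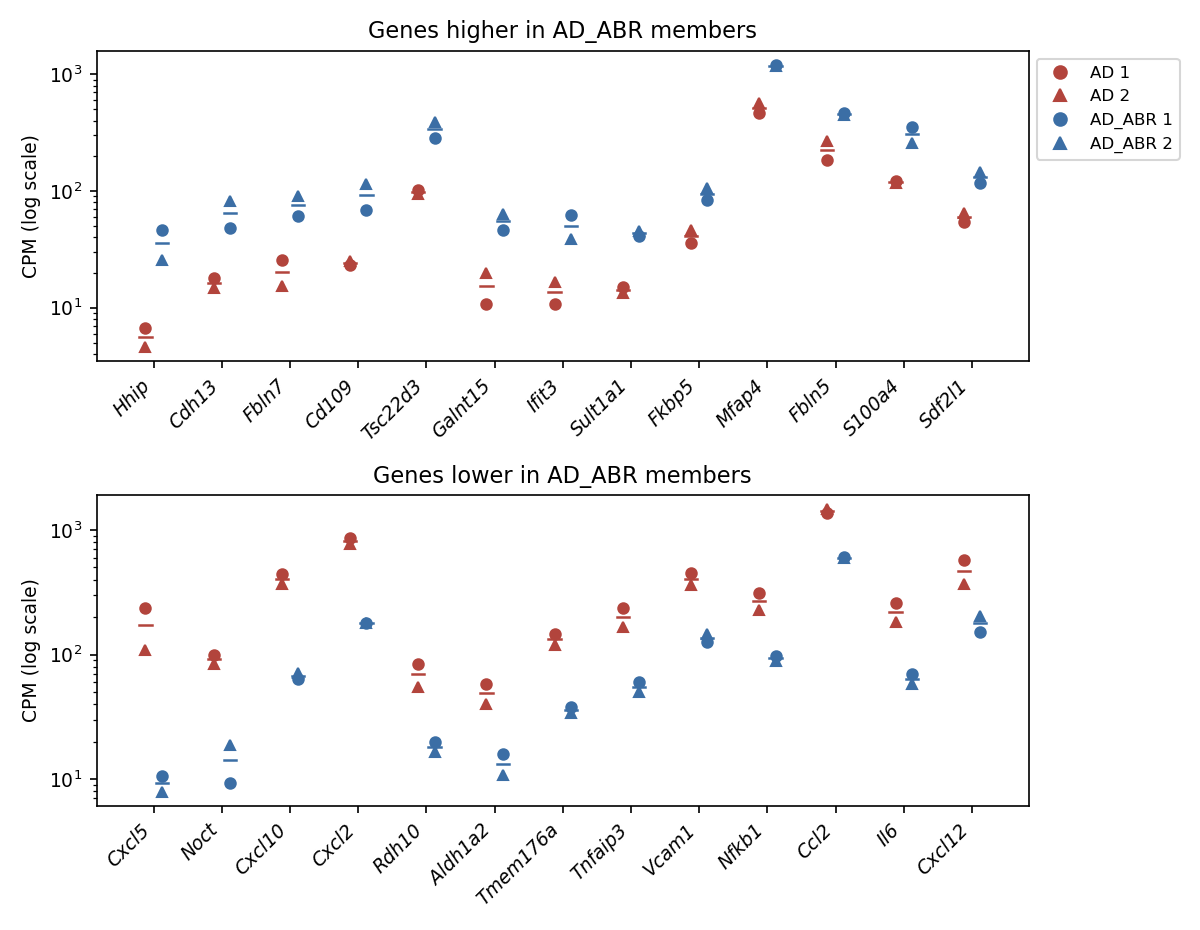
CPM (log scale) of named genes in members by library, with a bar at each group mean; the upper panel shows genes higher and the lower panel genes lower in AD_ABR. In each gene drawn both AD_ABR libraries lie on the same side of both AD libraries, for example Cxcl2 at 858 and 775 CPM against 180 and 180 CPM.

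Of 22 elastic fibre and cross-linking genes, 3 were higher (against 1.03% of all genes) and 1 was lower (against 1.36%), with a median of -0.01. Mfap4, a microfibril-associated protein, stood at 464 and 563 CPM in AD and 1206 and 1169 CPM in AD_ABR (log2 fold change 1.25 ± 0.15, edgeR adjusted p = 0.00881). Fbln5, which guides elastin onto microfibrils, stood at 183 and 269 CPM against 465 and 449 CPM (1.05 ± 0.19, 0.0374), and Ltbp4, which anchors latent TGF-beta in elastic fibres, at 354 and 337 CPM against 542 and 567 CPM (0.73 ± 0.13, 0.0298). Loxl4, a lysyl oxidase family member, was lower at 13.1 and 9.15 CPM against 4.07 and 1.88 CPM. Of 17 collagen genes only Col6a5 was called (lower, at 1.30 to 11.1 CPM, edgeR adjusted p = 0.049), and its call was lost without either AD library or AD_ABR replicate 2 and with doublets removed (0.0653 to 0.297). The call of Ltbp4 was lost without any 1 library (0.0575 to 0.187) and after thinning (log2 fold change 0.26, 0.597), and that of Fbln5 without AD replicate 1 or either AD_ABR library (0.0581 to 0.172). Loxl4 lost its call without either AD library or AD_ABR replicate 2 (0.0731 to 0.293), and Mfap4 without AD_ABR replicate 2 (0.066).

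Among 16 matricellular genes, which encode matrix proteins that signal to cells, Sparc and Ccn2 were higher and Thbs1 lower, with a median of 0.34. Over all genes tested, 1.03% were higher and 1.36% were lower. Sparc stood at 8809 and 10044 CPM in AD and 14738 and 16145 CPM in AD_ABR (log2 fold change 0.75 ± 0.15, edgeR adjusted p = 0.0432). Thbs1 (thrombospondin 1) stood at 462 and 332 CPM against 211 and 170 CPM (-1.02 ± 0.19, 0.0366). Of 23 proteases and inhibitors, Htra1 was higher at 203 and 215 CPM against 359 and 504 CPM, and Plau, the urokinase gene, was among the lower genes. Plau stood at 22.9 and 16.8 CPM against 7.32 and 8.37 CPM (-1.24 ± 0.24, edgeR adjusted p = 0.0414). These 5 genes lost their calls without AD replicate 1 or AD_ABR replicate 2, all but Htra1 without AD_ABR replicate 1, and Ccn2 and Htra1 without AD replicate 2 (edgeR adjusted p of 0.0578 to 0.274). No gene of 14 proteoglycan and hyaluronan genes or of 14 complement genes passed.

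Among 29 TGF-beta and BMP genes, Tgfb3 was higher, and Smad7 and Bmper were lower. Over all genes tested, 1.03% were higher and 1.36% were lower. Smad7, the inhibitory Smad that TGF-beta induces, stood at 232 and 249 CPM in AD and 110 and 110 CPM in AD_ABR (log2 fold change -1.08 ± 0.13, edgeR adjusted p = 0.00881). Tgfb3, a TGF-beta ligand, stood at 69.4 and 61.2 CPM against 112 and 95.8 CPM (0.71 ± 0.14, 0.0473), and its call was lost without any 1 library (0.0896 to 0.182). Tgfb3 also lost its call in cells chosen without C1qtnf3. In members with no C1qtnf3 UMI it stood at 68.6 and 55.5 CPM in AD and 96.8 and 63.8 CPM in AD_ABR, so the groups overlapped there. Of 19 growth factor ligands and receptors, Angptl1 and Ntf3 were higher, and Fgf7 and Hgf were among the lower genes. Ntf3 was among the genes prone to free RNA. Fgf7, a growth factor for epithelial cells, stood at 56.0 and 43.4 CPM against 26.9 and 21.5 CPM (-1.01 ± 0.19, 0.0344), and its call was lost without AD replicate 1 or either AD_ABR library (0.0628 to 0.236) and after thinning (-0.43, 0.675). Smad7 missed the threshold without AD_ABR replicate 2 (0.0794) and Bmper without either AD_ABR library (0.0577 and 0.0845). Hgf and Ntf3 lost their calls without any 1 library (0.0782 to 0.217), and Angptl1 without AD replicate 1 or either AD_ABR library (0.0796 to 0.185). No gene of 18 Wnt or 8 IGF genes passed.

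Of 15 unfolded protein response genes, 3 were higher (against 1.03% of all genes) and none was lower, with a median of 0.38. Sdf2l1, which works with the chaperone BiP in the endoplasmic reticulum, stood at 53.8 and 65 CPM in AD and 118 and 145 CPM in AD_ABR (log2 fold change 1.18 ± 0.16, edgeR adjusted p = 0.0137). Creld2 and Manf were the other called genes. None of the 3 passed without AD_ABR replicate 2 (0.0971 to 0.255), and only Sdf2l1 passed without AD replicate 1 or without AD_ABR replicate 1. None of 21 sterol and fatty acid synthesis genes passed, although their median was -0.70.

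Of 20 interferon response genes, Ifit3 was the only one called, at 10.8 and 16.7 CPM in AD and 61.9 and 38.8 CPM in AD_ABR (log2 fold change 1.80 ± 0.30, edgeR adjusted p = 0.0376), and the call was lost without either AD library (0.1 and 0.0531). Hk2, a hexokinase that phosphorylates glucose, fell from 206 and 221 CPM to 102 and 81.9 CPM (-1.19 ± 0.15, 0.00977). Txnip, an inhibitor of thioredoxin, was higher at 155 and 163 CPM against 336 and 388 CPM (1.23 ± 0.14, 0.00815), and Txnrd1 (thioredoxin reductase) was lower. Hk2 and Txnip missed the threshold without AD_ABR replicate 2 (0.0885 and 0.0652), and Txnrd1 without AD replicate 2 or either AD_ABR library (0.0573 to 0.181) and after thinning (0.593). Of 24 immediate early genes, Myc and Fosl2 were lower, with log2 fold changes of -0.81 and -0.72, and both lost the call without AD replicate 2 or either AD_ABR library (0.061 to 0.187), Fosl2 also without AD replicate 1 (0.0717). No gene of 22 oxidative phosphorylation genes passed. Over all genes tested, 1.03% were higher and 1.36% were lower.

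Paquinimod binds S100A9, so receptors and S100 genes were listed. S100a4, which encodes a calcium-binding protein of motile and stromal cells, stood at 121 and 118 CPM in AD and 353 and 258 CPM in AD_ABR (log2 fold change 1.39 ± 0.17, edgeR adjusted p = 0.00881). It was the only 1 of 12 tested genes called, against 1.03% called higher over all genes. Tlr4, a receptor for S100A8/S100A9, stood at 18.5, 19.8, 18.7 and 26.4 CPM (edgeR adjusted p = 0.466). Ager, another receptor gene, was nearly absent at 0 to 0.458 CPM and was not tested.

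**Figure D4:**
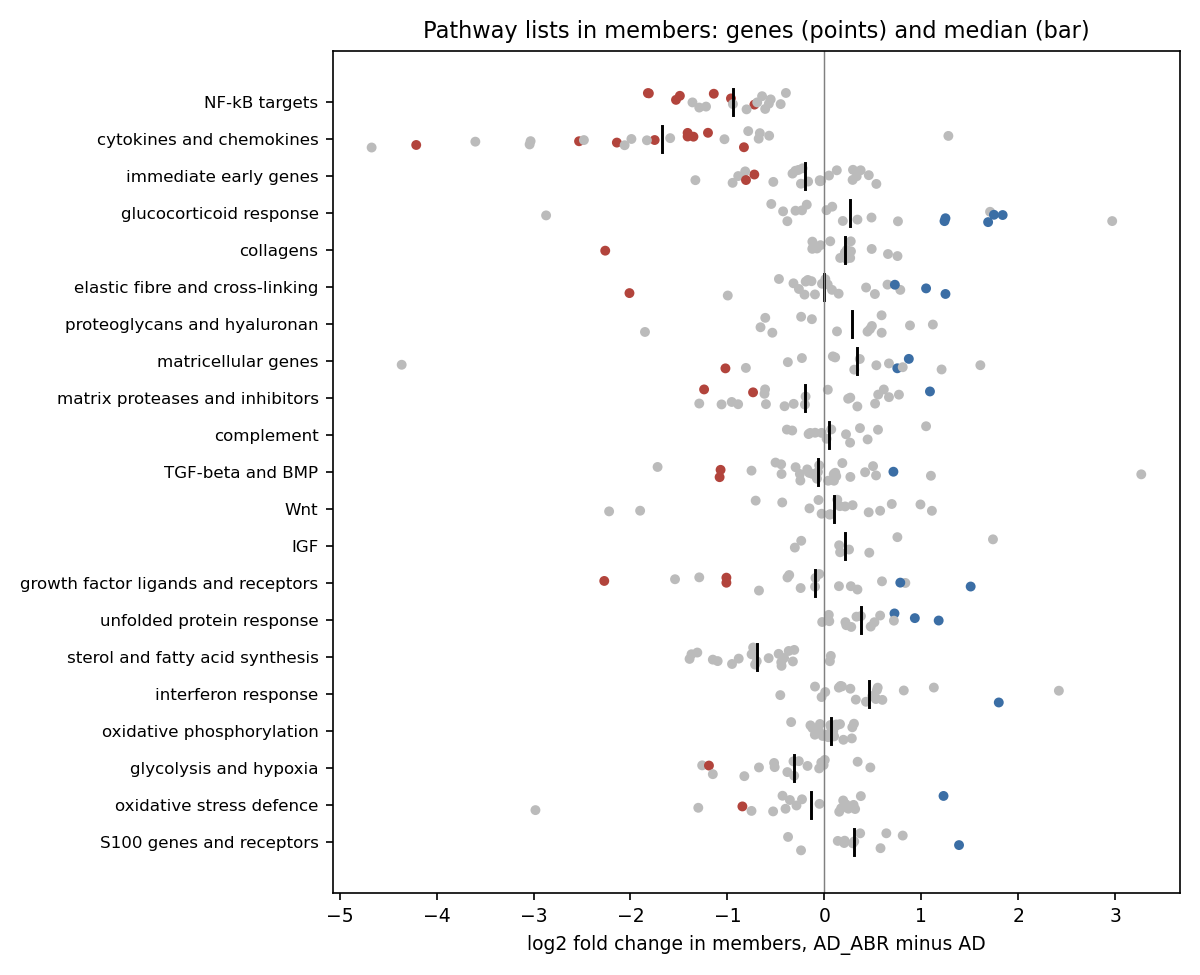
Log2 fold change (AD_ABR minus AD, x axis) of each tested gene of the 21 pathway lists in members; blue points passed the edgeR test as higher, red as lower, grey points did not pass, and the bar is the median. NF-kB targets (median -0.94) and cytokines and chemokines (-1.67) lie left of 0, and the elastic fibre genes are centred at -0.01.

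The largest changes by size added genes outside the lists. Hhip, the decoy receptor that limits hedgehog signalling, stood at 6.69 and 4.58 CPM in AD and 46.0 and 25.7 CPM in AD_ABR (log2 fold change 2.74 ± 0.35, edgeR adjusted p = 0.0166). Cdh13, a cadherin anchored to the membrane by a lipid, stood at 18.2 and 14.8 CPM against 48.4 and 82.5 CPM (2.10 ± 0.27, 0.0186), and Fbln7, a fibulin, at 25.5 and 15.2 CPM against 61.0 and 90.5 CPM (2.03 ± 0.29, 0.0296). Cd109, a surface protein that binds TGF-beta and dampens its receptors, stood at 23.2 and 24.9 CPM against 69.2 and 114 CPM (1.99 ± 0.25, 0.0159). The groups did not overlap in any of these genes, as in 51.9% of all genes tested. Hhip stood at 0.205 of its CPM in all other kept cells in AD 2 and Cdh13 at 0.173, against 0.457 to 1.09 and 0.295 to 0.626 in the AD_ABR libraries, so both met the free RNA limit of 0.25 through the group where they were higher. Galnt15 was also higher. Hhip lost its call without AD replicate 2 (0.0801) and with doublets removed (0.0608), Cdh13 and Cd109 lost theirs without either AD library (0.0782 to 0.109), and Fbln7 and Galnt15 without AD_ABR replicate 2 (0.0971 and 0.161).

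Among the falls, Noct (nocturnin), a circadian phosphatase, stood at 99.98 and 84.8 CPM in AD and 9.36 and 18.9 CPM in AD_ABR (log2 fold change -2.54 ± 0.27, edgeR adjusted p = 0.00908). Rdh10 and Aldh1a2, which carry out successive steps from retinol to retinoic acid, fell from 83.7 and 54.8 to 19.9 and 16.6 CPM (-1.89 ± 0.23, 0.0109) and from 58.6 and 39.8 to 15.9 and 10.8 CPM (-1.89 ± 0.26, 0.0163). Tmem176a, a membrane protein gene, fell from 147 and 119 to 38.3 and 34.0 CPM (-1.85 ± 0.16, 0.00621). Rdh10 and Aldh1a2 missed the threshold without AD_ABR replicate 2 (0.102 and 0.114).

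Markers of most other cell types were lower in members than in all other kept cells, but those of chondrocytes, mesothelium and erythrocytes (0.433 to 15 CPM in members) were so in some libraries only. Smooth muscle markers summed to 292, 334, 457 and 307 CPM (AD 1, AD 2, AD_ABR 1, AD_ABR 2), against 2701 to 9642 CPM in all other kept cells. Macrophage markers summed to 109, 94, 72.8 and 116 CPM against 1502 to 3148 CPM, and neutrophil markers to 92.7, 22.3, 52.1 and 23.4 CPM, with Ly6g at 0. Chondrocyte markers summed to 186, 122, 219 and 181 CPM in members against 439, 269, 174 and 153 CPM, and mesothelial markers to 36, 28.9, 11 and 26.3 CPM against 11.7, 6.17, 19.4 and 11 CPM. Among tested markers of non-fibroblast types, none of 9 smooth muscle, 8 macrophage, 3 mesothelial, 4 lymphatic endothelial, 1 neutrophil and 1 B cell genes passed between groups. Of the others, 1 of 6 pericyte genes (Ndufa4l2, 50.6 and 41.1 CPM in AD against 111 and 90 CPM in AD_ABR), 1 of 3 chondrocyte genes (Comp, 66.2 and 53.1 against 94.8 and 106 CPM) and 1 of 2 Schwann cell genes (Mbp, 1.27 and 1.26 against 4.48 and 9.52 CPM, prone to free RNA) were higher. Egfl7, 1 of 8 endothelial genes, was lower at 14.3 and 12.2 against 4.88 and 2.45 CPM (edgeR adjusted p of 0.0146 to 0.0374 for these 4). Each of the 4 missed the threshold without AD_ABR replicate 2 (0.053 to 0.425), Comp, Mbp and Egfl7 also without AD replicate 2 (0.0701 to 0.118), Mbp and Egfl7 without AD replicate 1 (0.104 and 0.0896), and Comp without AD_ABR replicate 1 (0.075). With doublets removed Comp, Mbp and Egfl7 missed it too (0.0548 to 0.0913). The heart muscle genes Myh6 and Myh7 were at 0. Over all genes tested, 1.03% were higher and 1.36% were lower. Cell cycle markers summed to 416 and 325 CPM in AD and 93.2 and 185 CPM in AD_ABR, and 1 of 12 passed (Tyms, lower), with a median log2 fold change of -1.54; Tyms lost its call without AD replicate 1 or either AD_ABR library (edgeR adjusted p of 0.0996 to 0.213). Members with fewer than 3 cell cycle UMIs gave 283 called genes, and 216 of the 295 were among them. Rn18s-rs5, a ribosomal RNA sequence, took 4.32% and 2.7% of member UMIs in AD and 1.53% and 1.05% in AD_ABR (log2 fold change -1.40, edgeR adjusted p = 0.0623, and 0.0276 without AD replicate 2). Lars2, the mitochondrial leucyl-tRNA synthetase gene, took 0.0587% and 0.0489% against 0.0324% and 0.0229% and was called lower (-0.92, edgeR adjusted p = 0.0498), although not without either AD library or AD_ABR replicate 2 (0.0688 to 0.239) or with doublets removed (0.0526). The part of these markers and transcripts in the lower or higher genes was not tested.

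Next, the treatment difference of members was compared with that of the Tcf21 class, 4026 other gated fibroblasts led by the Tcf21 marker sum, as a class by treatment interaction within libraries. Of 13632 genes, 69 passed (0.506%), with 35 relatively higher (0.257%) and 34 relatively lower (0.249%) in treated members. Hhip stood at 70.8, 63.8, 74.4 and 61.7 CPM in the Tcf21 class, where it hardly moved (log2 fold change 0.06), and the difference from members was 2.65 ± 0.25 (edgeR adjusted p = 0.000146). Treated members lay nearer to the level of that class than untreated members did. Cd109 rose in members (1.99) and stood at 0.04 in the Tcf21 class, a difference of 1.91 ± 0.20 (0.00028). S100a4 and Pi15, a secreted relative of Pi16, had differences of 1.23 and 1.35 (0.000293 and 0.000325). Il6 had a log2 fold change of -1.75 in members and -0.12 in the Tcf21 class, a difference of -1.67 ± 0.16 (edgeR adjusted p = 0.000146).

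Cxcl12, Tmem176a, Adm and Steap4 had differences of -1.11, -1.10, -1.18 and -1 from the Tcf21 class. Several of the inflammatory and glucocorticoid changes gave small differences that did not pass. They were -0.04 ± 0.15 for Cxcl10, 0.32 ± 0.14 for Cxcl2, -0.03 ± 0.15 for Tnfaip3 and 0.18 ± 0.15 for Tsc22d3 (edgeR adjusted p of 0.996, 0.575, 1.00 and 0.875). A p that misses the threshold does not show that the classes responded alike. Called differences numbered 28 when AD replicate 1 was left out, 106 when AD replicate 2 was, 20 when AD_ABR replicate 1 was, 3 when AD_ABR replicate 2 was, and 6 after thinning to 3000 UMIs. Of the 10 named genes only Hhip kept its call when AD_ABR replicate 2 was left out. In cells with a marker sum of at least 5 the difference for Hhip was 2.30 with an adjusted p of 0.384 by edgeR.

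**Figure D5:**
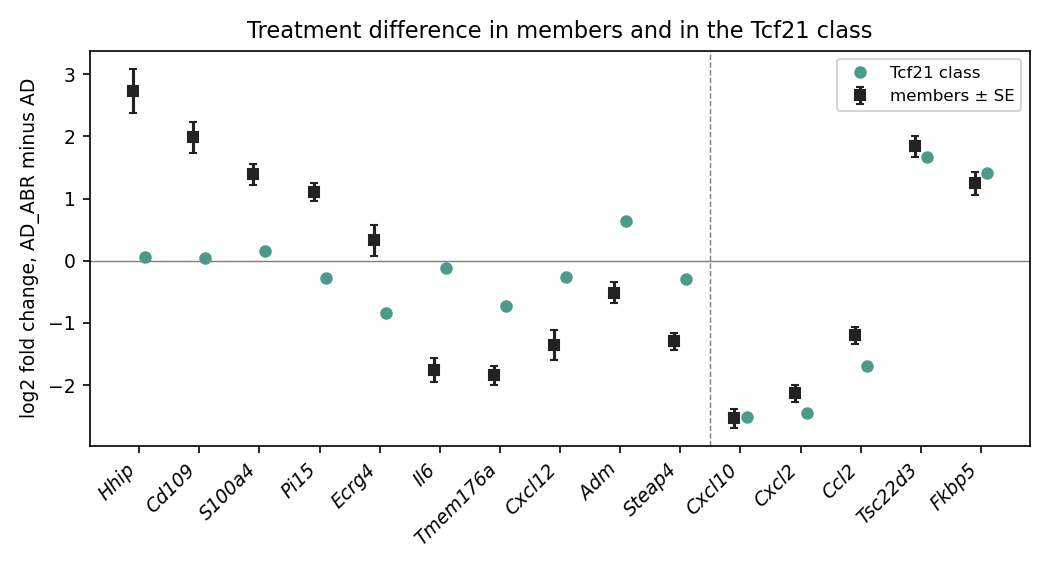
Log2 fold change (AD_ABR minus AD, y axis) in members (black squares, bars are SE) and in the Tcf21 class (green points); left of the dashed line are the 10 genes named from the interaction test, right of it 5 genes without a called difference. Hhip is at 2.74 in members and 0.06 in the Tcf21 class, and Cxcl10 is at -2.53 and -2.52.

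Against all other gated fibroblasts together, 339 of 16282 genes differed in their treatment response (2.08%), with 160 relatively higher (0.983%) and 179 relatively lower (1.1%) in treated members. Pi16 stayed between 2591 and 3060 CPM in members and stood at 364 and 489 CPM in AD and 970 and 865 CPM in AD_ABR in the others, a difference of -1.30 (edgeR adjusted p = 4.35e-05). Scara5, a ferritin receptor of the same programme, differed by -1.46 and Cp (ceruloplasmin) by -1.58. Ccl2 fell in both populations and less in members, a difference of 1.06 (edgeR adjusted p = 0.000351), and Serpinb1a, a protease inhibitor gene, likewise (1.76). The others are a mixture. In AD_ABR its Cthrc1 class was a smaller share of the gate, and its Tcf21 and Fmod classes were larger shares. A shift of class shares and a change within cells cannot be told apart in this comparison. The count became 67 when AD_ABR replicate 2 was left out, 638 when AD replicate 2 was, and 86 after thinning.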

How the data were processed

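UMI counts per gene and barcode were deposited as 10x Genomics 3′ matrices for 4 libraries. The submitters' processing notes list STAR, Cell Ranger 6.0, Seurat 4.0 and GRCm38 for the authors' work, but Cell Ranger 7.1.0 stands in the matrix headers. Barcodes with at least 200 genes and under 20% mitochondrial UMIs were kept, and the rule was applied to them. Members and gene lists were chosen with earlier results of these data known.

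Counts were summed per library over members, since cells are not replicates, and tested as AD_ABR minus AD with edgeR 4.0.16 in R 4.3.3 (TMM, filterByExpr, robust quasi-likelihood F test, Benjamini-Hochberg over all genes, threshold 0.05). Interactions used the library as block. Each SE was computed as log2 fold change over √F. DESeq2 1.42.0, other normalizations, filters, marker minimums of 2 and 5, doublet removal (Scrublet in scanpy 1.11.5, 0.8% per 1000 barcodes; doublets stayed in the main analysis), thinning to 3000 UMIs, a replicate block and leaving out each library were alternatives. The scripts were tested on simulated data.

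The genes named were the 8 largest rises and 8 largest falls with a mean of at least 20 CPM, libraries that do not overlap and a level of at least 0.25 of that in all other kept cells in each library of the higher group (below this, a gene was called prone to free RNA), up to 3 called genes per list, and 5 genes per direction of each interaction; further genes of a list were named after their values were seen. There were 21 pathway lists and 17 marker lists. Overlapping genes on 1 strand are not separated by 3′ reads. Some genes of the lists are not reported here.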

Additional observations from a re-analysis of the deposited data

Results flagged for a closer look

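The genes below were singled out because their treatment response differed between members and other fibroblasts in a test of the difference itself. All values are differences of log2 fold changes (members minus the other population, edgeR interaction test, adjusted p under the threshold).

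Against the Tcf21 class, the response of members was higher for Hhip (2.65), Cd109 (1.91), Pi15 (1.35), S100a4 (1.23) and Ecrg4 (1.2). It was lower for Il6 (-1.67), Adm (-1.18), Cxcl12 (-1.11), Tmem176a (-1.10) and Steap4 (-1). Ecrg4 stood at 31.5 and 49.5 CPM in AD members and 59.4 and 44.4 CPM in AD_ABR members, so its groups overlapped and it did not pass within members (edgeR adjusted p = 0.527). Adm, a vasodilator peptide gene, stood at 153 and 156 CPM against 86.7 and 121 CPM and did not pass within members (edgeR adjusted p = 0.147).

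Against all other gated fibroblasts, the response of members was higher for Cd109 (1.89), Serpinb1a (1.76), Ecrg4 (1.5), Tppp3 (1.22) and Ccl2 (1.06). It was lower for Adm (-1.64), Steap4 (-1.63), Cp (-1.58), Scara5 (-1.46) and Pi16 (-1.30). These other fibroblasts are a mixture, so a shift of class shares and a change within cells cannot be told apart. Against the Tcf21 class, Pi16 (-0.41), Scara5 (-0.40), Ccl2 (0.50) and Serpinb1a (0.25) did not pass (edgeR adjusted p of 0.25, 0.448, 0.118 and 0.877). The rest of these genes passed there too, in the same direction. Without AD_ABR replicate 2, of the 10 genes named against the Tcf21 class only Hhip kept an adjusted p under the threshold, and the 10 named against all other gated fibroblasts all kept it.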

How the results depend on the processing

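The 295 called genes ranged from 207 to 399 under 3 other normalizations, the DESeq2 Wald test, a minimum of 10 counts in every library, marker minimums of 2 and 5, doublet removal and 3 choices of members added after seeing the data. They became 1157 with no filter on low counts and 127 after thinning to 3000 UMIs, and ranged from 57 to 336 without 1 library. All 45 named genes kept their direction in every setting that tested them. The differences from other gated fibroblasts (339) became 528 at a marker minimum of 5 and 86 after thinning, and ranged from 67 to 638 without 1 library. Those from the Tcf21 class (69) became 113 and 6 in those settings and ranged from 3 to 106. The share's log2 fold change ranged from -1.09 to -0.20 without 1 library, and that of C1qtnf3 in cells chosen without it from 0.31 to 2.36 (edgeR adjusted p = 0.0217 without AD_ABR replicate 1). A lone library of a group was assumed to vary like the others. The cause of these changes was not tested, apart from fewer samples when a library was left out.

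Replicate numbers were shared by the groups as numbers only: deviations of the 2 pairs correlated at 0.149 over 12348 genes, with no source for a pairing. With a replicate block 694 genes were called, the share's log2 fold change was -0.59 (edgeR adjusted p = 0.0057) and that of C1qtnf3 was 1.66 (0.0433). With 2457625 UMIs in the smallest member sum, genes at a few CPM rest on few molecules.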
